A study of Arabidopsis thaliana with 4 samples.

Results

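The 10 genes described here encode the folding machinery of the endoplasmic reticulum (ER) and the sensors and factors of the unfolded protein response in Arabidopsis thaliana. They were taken by locus: BIP1 (AT5G28540), BIP2 (AT5G42020), BIP3 (AT1G09080), CNX1 (AT5G61790), ERDJ3A (AT3G08970), ERDJ3B (AT3G62600), P58IPK (AT5G03160), BZIP60 (AT1G42990), BZIP28 (AT3G10800) and IRE1A (AT2G17520). All 10 had a probe among the 25426 loci matched on the array, and 9 of them were among 18411 genes whose signal was well above background on each of the 4 arrays. BIP3 was not, because it was not well above background in the control. The series compared wild-type Columbia-0 seedlings kept for 30 min in a closed box with vapour of (E)-2-pentenal, 3-hepten-2-one or crotonaldehyde, each at a nominal 10 µM and dissolved in acetonitrile, with seedlings given acetonitrile alone. Each group was 1 array from the pooled RNA of at least 6 plants. (E)-2-pentenal and crotonaldehyde are unsaturated aldehydes, with a longer carbon chain in (E)-2-pentenal, whereas 3-hepten-2-one carries a ketone in place of the aldehyde group.

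Proteins that enter the ER are folded by the lumenal HSP70 chaperone BiP, whose ATP cycle is driven by J-domain co-chaperones, and by lectins such as calnexin that hold glycoproteins. When unfolded proteins build up, the membrane sensor IRE1 splices the mRNA of the bZIP60 factor, and the membrane-bound factor bZIP28 is cut in the Golgi. Both factors then enter the nucleus and raise the transcription of chaperone and degradation genes. Heat activates both branches in Arabidopsis. The array measures transcript level and cannot show splicing, cleavage or protein.

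A level below is the processed spot signal divided by the 75th percentile of its array (relative signal), and a difference is log2 of a volatile's level minus log2 of the level it is set against. With 1 array per group there was no replicate check and no test, so no p-value is given. A 2-fold difference (1 on the log2 scale) was the size from which a gene was counted as higher or lower. The scanner's error model gave an SD of 0.20 on the log2 scale for a difference between well measured spots, and repeat spots of 17 probes an SD of 0.079 to 0.11 for the differences from acetonitrile. Both cover measurement within an array and not the spread between plants. The (E)-2-pentenal, 3-hepten-2-one and acetonitrile arrays shared a slide and a scan. Crotonaldehyde had a slide and a scan of its own, so slide and treatment cannot be told apart in any comparison with it. Between 72.6% and 74.4% of spots per array were well above background, no spot was saturated, and the 75th percentile of the signal was 1518, 1531 and 1048 for (E)-2-pentenal, 3-hepten-2-one and crotonaldehyde, against 1667 for acetonitrile. The 4 shoot markers had relative signals of at least 102 on every array. By the brightest probe neither they nor the 7 reference genes passed 2-fold after a volatile, but dimmer probes of some did. After crotonaldehyde the probes of LHCB1.1, a light-harvesting protein, gave -0.69, -3.04 and -1.42 on the log2 scale. After 3-hepten-2-one those of RCA, Rubisco activase, lay between 0.77 and 1.23, and those of the reference gene UBQ10 between 0.45 and 1.105. The UBQ10 probes lay between 0.40 and 0.87 after (E)-2-pentenal and between 0.52 and 1.04 after crotonaldehyde. Of the 3 root markers, PYK10 stood at 8.42, 31.4 and 0.0564 on the (E)-2-pentenal, 3-hepten-2-one and crotonaldehyde arrays, against 17.8 in acetonitrile. PYK10 was thus lower after (E)-2-pentenal too, 2.12-fold. CASP1 was 2.12-fold lower after 3-hepten-2-one than in acetonitrile. After crotonaldehyde it was not well above background and at least 3.88-fold lower. CASP2 passed 2-fold after crotonaldehyde alone, with a log2 difference of -1.36. In RNA of whole seedlings, fewer cells of a type and less RNA per cell cannot be told apart. All 3 root markers were thus at least 2-fold lower on the crotonaldehyde array and 1 of them on each of the other volatile arrays. The part of these shifts in the results below was not tested.

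Among the 3 J-domain co-chaperones of BiP, ERDJ3A stood far apart from the other two. ERDJ3A, also known as TMS1 and needed for pollen tube growth in heat, had relative signals of 1.37, 1.61 and 2.94 on the (E)-2-pentenal, 3-hepten-2-one and crotonaldehyde arrays, against 0.0378 in acetonitrile. It was low in the control and high after each volatile, 36.2-fold, 42.6-fold and 77.9-fold higher. Ordered from the highest difference down, it ranked 29, 27 and 20 among the 18411 genes. ERDJ3B, which acts with BiP in the maturation of surface receptors, stood at 2.61, 2.57 and 4.16, against 2.50 in acetonitrile. Its differences of 0.06 and 0.04 after (E)-2-pentenal and 3-hepten-2-one were smaller than the error-model SD, and that of 0.73 after crotonaldehyde was within 2-fold.

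P58IPK, a lumenal J protein with tetratricopeptide repeats, was the member that went in opposite directions. Its relative signal was 56.8 after (E)-2-pentenal, 21.1 after 3-hepten-2-one and 132 after crotonaldehyde, against 56.9 in acetonitrile. After (E)-2-pentenal it stood at the control level, with a difference of -0.003. The ketone array was 2.70-fold lower than acetonitrile and the crotonaldehyde array 2.31-fold higher. Only 1.96% of the genes compared had a lower difference than P58IPK after 3-hepten-2-one. It has 1 probe on the array, so no second probe bears on this. In the RefSeq annotation its locus overlaps that of FLA11 (AT5G03170) by 56 bases, and that of ERDJ3A overlaps AT3G08960 by 60 bases. The FLA11 differences were -0.32, -0.53 and -1.51 on the (E)-2-pentenal, 3-hepten-2-one and crotonaldehyde arrays, and those of AT3G08960 were -0.13, -0.17 and 0.12. Where the probes lie within these loci was not analysed here.

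**Figure D1:**
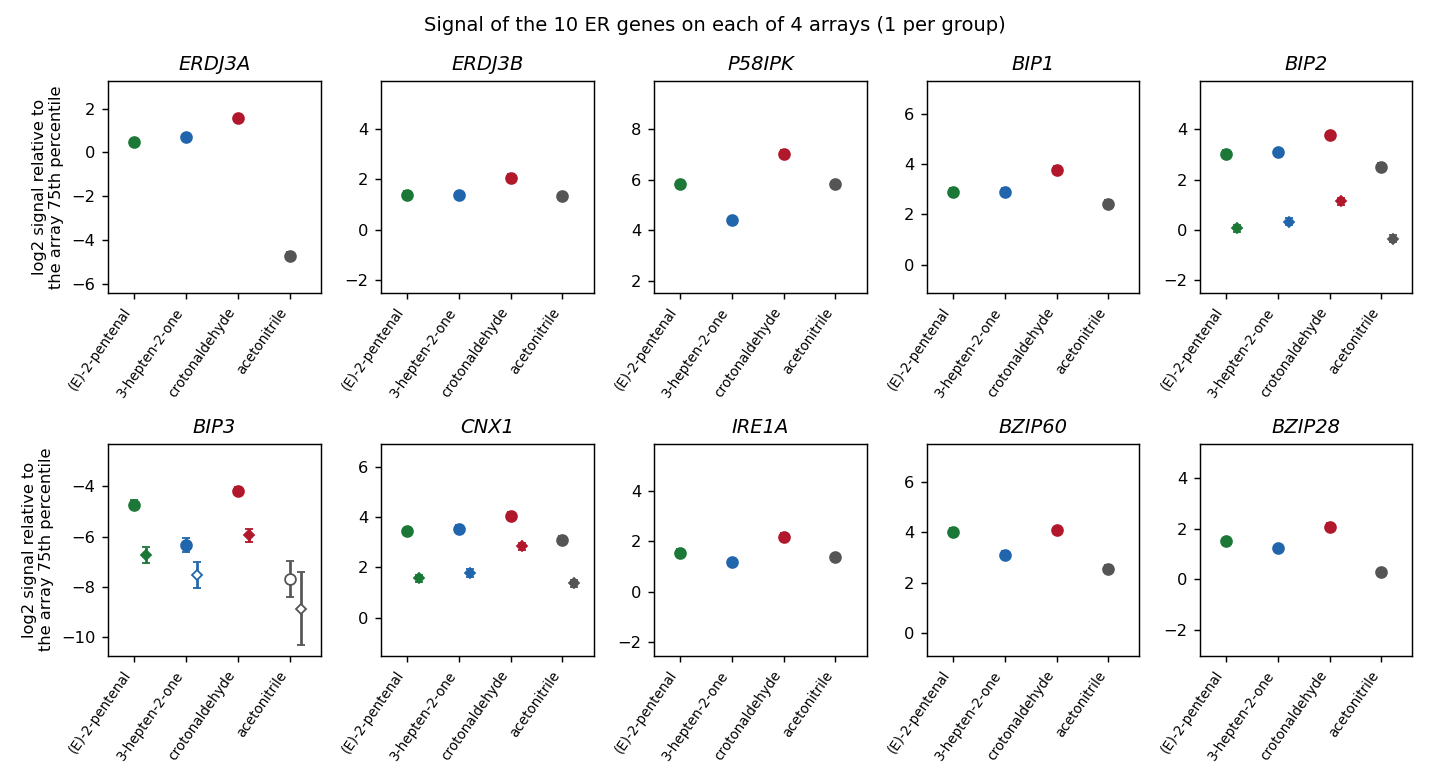
Each panel plots one gene: log2 signal relative to the array's 75th percentile (vertical axis) on the (E)-2-pentenal, 3-hepten-2-one, crotonaldehyde and acetonitrile arrays. Circles are the brightest probe, diamonds a second probe, open symbols are not well above background, and bars are the error-model SD of the array. ERDJ3A was between 0.45 and 1.56 after the volatiles and at -4.73 in acetonitrile, while P58IPK was lowest after 3-hepten-2-one at 4.40.

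The 2 abundant BiP genes were higher by less than 2-fold after the volatiles on the control's slide, and by more after crotonaldehyde. BIP1 had relative signals of 7.49, 7.49 and 13.6 on the (E)-2-pentenal, 3-hepten-2-one and crotonaldehyde arrays, against 5.34 in acetonitrile. It was thus 1.40-fold, 1.40-fold and 2.55-fold higher. BIP2 stood at 8.09, 8.46 and 13.6, against 5.70 in acetonitrile, or 1.42-fold, 1.48-fold and 2.38-fold higher. The crotonaldehyde array passed 2-fold for both genes and the other volatiles for neither. After (E)-2-pentenal and 3-hepten-2-one the differences of both genes were still beyond 2 error-model SD. They lay above those of 90.58% and 85.9% of all genes compared for BIP1, and 90.95% and 88.05% for BIP2. A second, dimmer BIP2 probe gave log2 differences of 0.41, 0.68 and 1.48, beside 0.51, 0.57 and 1.25 from the brightest one. BIP1 and BIP2 are nearly identical in sequence, and a probe for either can bind the transcript of the other, so they count as uncertain singly.

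BIP3, the BiP gene that is scarcely transcribed without ER stress and strongly induced by it, was dim on all arrays. Its relative signal was 0.0376 after (E)-2-pentenal, 0.0123 after 3-hepten-2-one and 0.0551 after crotonaldehyde, and 0.00491 in acetonitrile, where it was not well above background. Set against the lowest signal called well above background in the control, it was at least 3.96-fold higher after (E)-2-pentenal, at least 1.30-fold after 3-hepten-2-one and at least 5.80-fold after crotonaldehyde. With normexp background correction the bounds on the log2 scale were 0.84 after (E)-2-pentenal, 0.22 after 3-hepten-2-one and 1.25 after crotonaldehyde, instead of 1.99, 0.37 and 2.54, so that only crotonaldehyde passed 2-fold. A second probe, dimmer still, was well above background on the (E)-2-pentenal and crotonaldehyde arrays only. BIP3 thus had its highest signals on the 2 aldehyde arrays.

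CNX1 encodes calnexin, the membrane lectin that retains glycoproteins until they fold. It stood at 10.8, 11.7 and 16.5 on the (E)-2-pentenal, 3-hepten-2-one and crotonaldehyde arrays, against 8.58 in acetonitrile. Its differences were 0.33, 0.44 and 0.94, none of them past 2-fold. The probes parted after crotonaldehyde, where the second one gave 1.48, and their mean of 1.21 would pass the rule.

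The transducers of the response differed among themselves. BZIP60, the factor whose mRNA IRE1 splices, had relative signals of 16.2, 8.64 and 16.9 on the (E)-2-pentenal, 3-hepten-2-one and crotonaldehyde arrays, against 5.80 in acetonitrile. It was 2.79-fold and 2.91-fold higher after the aldehydes and 1.49-fold higher after the ketone. BZIP28, the factor released by cleavage in the Golgi, stood at 2.84, 2.33 and 4.21, against 1.20 in acetonitrile. It was 2.36-fold and 3.50-fold higher after (E)-2-pentenal and crotonaldehyde, and its 1.93-fold after 3-hepten-2-one lay just under the rule. IRE1A, a kinase and ribonuclease, stood at 2.94, 2.25 and 4.50, against 2.57 in acetonitrile. Its differences of 0.20 and -0.19 after (E)-2-pentenal and 3-hepten-2-one were no larger than the error-model SD, and after crotonaldehyde it was 1.75-fold higher. Both bZIP genes were therefore higher than the control on all 3 volatile arrays, and the sensor gene IRE1A on only the crotonaldehyde array by more than 2 error-model SD of the difference.

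**Figure D2:**
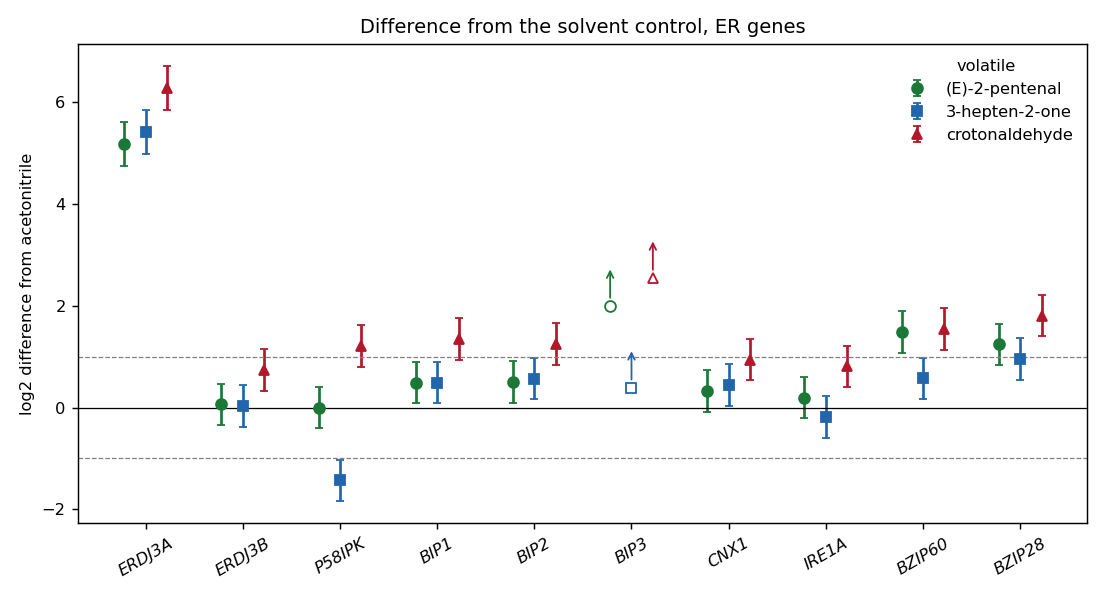
Log2 difference of each volatile from acetonitrile for the 10 genes, with bars of 2 error-model SD and dashed lines at 2-fold. Open symbols with arrows are lower bounds for BIP3. ERDJ3A lies above 5 after every volatile, and all 9 filled crotonaldehyde points lie above 0.

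Counted over the 9 genes compared, (E)-2-pentenal had 3 higher (ERDJ3A, BZIP60 and BZIP28) and none lower. Of all genes compared 4.5% were higher and 1.87% lower by that size, 6.37% in all. After 3-hepten-2-one ERDJ3A was higher and P58IPK lower, where 6.12% of all genes were higher and 4.57% lower, or 10.7% either way. Among all genes past 2-fold in that comparison 57.2% were higher, a share that was 46.0% under the authors' scaling and 43.4% when scaled on reference genes. The reference gene UBQ10 was itself higher there by 0.84 on the log2 scale, and the others lay between -0.215 and 0.299. After crotonaldehyde 6 of 9 were higher (BIP1, BIP2, ERDJ3A, P58IPK, BZIP60 and BZIP28) and none lower, where 8.89% of all genes were higher and 15.2% lower, or 24.1% either way. BIP1 and BIP2 are counted as 2 genes here, although a probe for either can bind the transcript of the other. Median scaling makes 58.7% of all genes past 2-fold higher after crotonaldehyde, instead of 36.9%, by moving the median of all genes up by 0.32. The same 9 genes had a median log2 difference of 0.49 after (E)-2-pentenal, 0.49 after 3-hepten-2-one and 1.25 after crotonaldehyde. These medians are the values of BIP1 after (E)-2-pentenal and 3-hepten-2-one and of BIP2 after crotonaldehyde. The medians of all genes were -0.06, -0.07 and 0.005. All 9 were above 0 after crotonaldehyde, as were 50.3% of all genes, and the lowest of the 9 was ERDJ3B. They remained above 0 under each of the other settings run, some of which cannot alter these values, the lowest value being 0.59. The 3 comparisons share the acetonitrile array, so an unusual control level would move all of them together.

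The volatiles were then set against each other in 3 pairs, at the same nominal dose and time. On their shared slide, 3-hepten-2-one and (E)-2-pentenal differed by 2-fold in 1 of the 9 genes compared, P58IPK, which was 2.69-fold lower after the ketone. Over all genes 3.86% were higher after the ketone and 4.21% lower, 8.07% in all. BIP3, well above background on both arrays, was 3.06-fold lower after the ketone, with an error-model SD of 0.31 on the log2 scale. That call was lost under normexp, which gave -0.63. BZIP60 was 1.87-fold lower after the ketone (log2 difference -0.91), within the rule but beyond 2 error-model SD. For the other 7 genes compared the difference was within 2 such SD. The narrowest were BIP1 at -0.002 and ERDJ3B at -0.03, each with an SD of 0.20, and ERDJ3A differed by 0.24. With no replicates these values do not show that the ketone and the aldehyde act alike on those genes.

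Between the aldehydes, the crotonaldehyde array was above the (E)-2-pentenal array for all 9 genes compared, with a median difference of 0.67. It was above for 52.2% of all genes, with a median of 0.03. ERDJ3A was 2.15-fold and P58IPK 2.32-fold higher after crotonaldehyde, and none was lower by 2-fold. Of all genes 5.56% were higher and 13.6% lower in this pair, 19.2% in all, a split of 29.0% higher among those past the rule that becomes 51.8% with median scaling. BZIP60 was the gene on which the aldehydes differed least, by 0.06 with an error-model SD of 0.20. Its sign turned under normexp, quantile normalization, cyclic loess and the authors' scaling, the lowest value being -0.08. BIP3 differed by 0.55 with an SD of 0.23. Crotonaldehyde was above 3-hepten-2-one for all 9 genes as well, and for 53.1% of all genes. P58IPK was 6.24-fold higher after crotonaldehyde and the only one of the 9 past 2-fold, where 9.72% of all genes were higher and 15.8% lower, 25.5% in all. With median scaling the share higher among all genes past the rule in this pair is 58.8%, instead of 38.2%. IRE1A lay just under the rule with a difference that rounds to 1.00, and BIP3 was 4.48-fold higher (log2 difference 2.16, and 1.04 under normexp). For each of the 10 genes the level was highest on the crotonaldehyde array, which was also the array on the other slide, except that BZIP60 was higher after (E)-2-pentenal under those 4 settings.

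**Figure D3:**
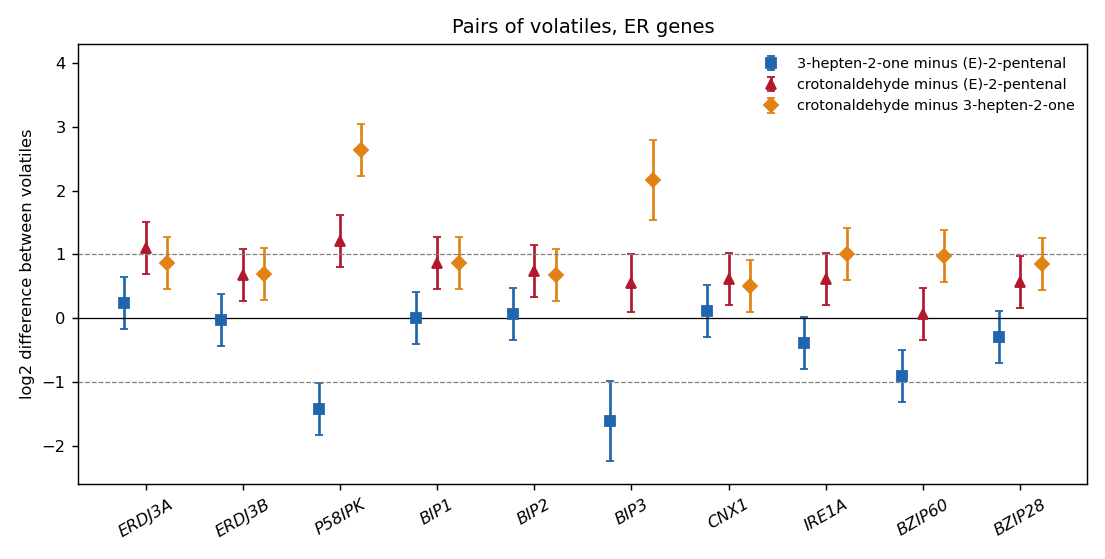
Log2 difference between volatiles for the 10 genes in the 3 pairs, first named minus second, with bars of 2 error-model SD and dashed lines at 2-fold. P58IPK shows the widest separation of the genes compared on all arrays, at -1.43, 1.21 and 2.64, and BIP1 and ERDJ3B lie near 0 for 3-hepten-2-one minus (E)-2-pentenal.

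A wider set of 45 ER genes, listed by role, was examined beside the 10. Of these 43 were well above background throughout. The protease gene S2P had no matched probe, and BZIP49, a relative of BZIP28, was not well above background on the (E)-2-pentenal and acetonitrile arrays. After (E)-2-pentenal 3 of the 43 were at least 2-fold higher, after 3-hepten-2-one 2, and after crotonaldehyde 9, and none was lower after any volatile. As shares these are 6.98%, 4.65% and 20.9%, beside 4.5%, 6.12% and 8.89% of all genes. The median difference of the 43 was 0.075, 0.03 and 0.275.

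The lists by role stand beside the same shares of all genes. At least 2-fold higher were 4.5%, 6.12% and 8.89% of all genes on the (E)-2-pentenal, 3-hepten-2-one and crotonaldehyde arrays. At least 2-fold lower were 1.87%, 4.57% and 15.2%. None of the 9 other lumenal chaperones and lectin-cycle proteins passed 2-fold after any volatile, too few genes to set this list apart from those shares. The 9 include calreticulins and HSP90.7, the ER form of HSP90. By its brightest probe HSP90.7 had differences of 0.07, 0.10 and 0.43 on the (E)-2-pentenal, 3-hepten-2-one and crotonaldehyde arrays. A second, dimmer probe gave -0.20, 0.15 and 0.08. Among 10 enzymes of disulfide bond formation none passed after (E)-2-pentenal or 3-hepten-2-one. After crotonaldehyde 3 did: ERO1, the oxidase that recharges protein disulfide isomerases, was 3.41-fold higher, and the isomerases PDIL1-2 and PDIL2-2 were 2.62-fold and 2.60-fold higher. Of 11 genes of ER-associated degradation, DER1, a derlin of the retrotranslocation channel, was 2.19-fold, 1.97-fold and 3.74-fold higher on the (E)-2-pentenal, 3-hepten-2-one and crotonaldehyde arrays. HRD1B, a membrane ubiquitin ligase, was 2.26-fold higher after crotonaldehyde.

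Among 8 other sensors and factors, NAC062, a membrane-tethered factor that moves to the nucleus under ER stress, was 3.31-fold, 2.48-fold and 2.35-fold higher. It was past 2-fold after each volatile and highest after (E)-2-pentenal. BI-1, an ER membrane protein that restrains cell death, had relative signals of 6.04, 4.33 and 15.3 on the (E)-2-pentenal, 3-hepten-2-one and crotonaldehyde arrays, against 3.13 in acetonitrile. That put it 4.89-fold higher after crotonaldehyde, with 3 probes between 1.96 and 2.30 on the log2 scale. BZIP17, a relative of BZIP28 known from the salt response, was higher after crotonaldehyde by 1.14 on the log2 scale.

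In the list of translocation and export genes the only one past the rule was TIN1 (AT5G64510), a lumenal protein named for its induction by tunicamycin, a drug that blocks glycosylation in the ER. TIN1 is not itself a translocation protein. Its relative signal was 4.35, 5.72 and 7.51 on the (E)-2-pentenal, 3-hepten-2-one and crotonaldehyde arrays, against 0.101 in acetonitrile. It was low in the control alone, and 42.9-fold, 56.4-fold and 74.1-fold higher after the volatiles.

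**Figure D4:**
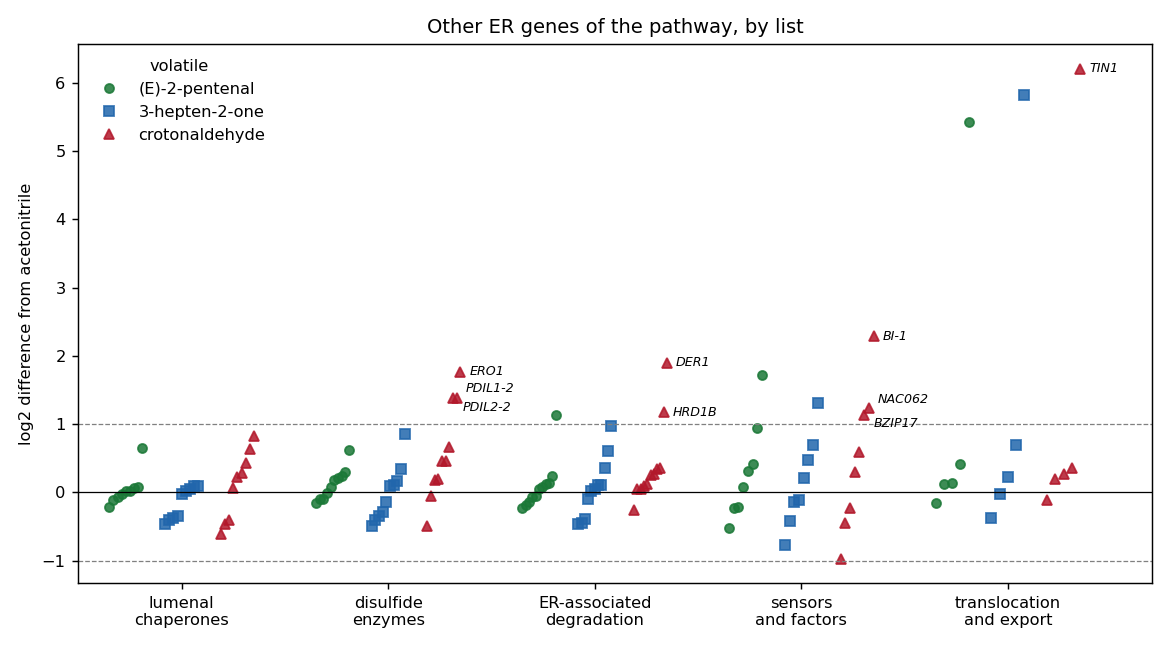
Log2 difference from acetonitrile for 43 further ER genes in 5 lists, one point per gene and volatile, with dashed lines at 2-fold. Names mark genes past 2-fold after crotonaldehyde. Most points lie within 2-fold, and TIN1 stands apart near 6 after all 3 volatiles.

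TIN1 was also among the 5 genes closest to ERDJ3A by Euclidean distance over the 3 log2 differences, out of all genes compared. The nearest was Fes1A (AT3G09350), a partner of cytosolic HSP70, at a distance of 0.31 with 41.6-fold, 36.1-fold and 77.1-fold. AT2G20560 followed at 0.44, TIN1 at 0.48, AT5G48570 (FKBP65, a peptidyl-prolyl isomerase) at 0.59 and AT5G25450 at 0.72. The likeness rests on 3 differences that share a control. The 4 listed genes of the cytosolic heat response were set beside these. HSFA2, a heat-induced transcription factor, was 209-fold, 196-fold and 252-fold higher on the (E)-2-pentenal, 3-hepten-2-one and crotonaldehyde arrays. HSP101, a disaggregating chaperone, and HSP90.1, an inducible HSP90, exceeded ERDJ3A on each as well. HSP70B, a cytosolic relative of BiP, was below ERDJ3A after 3-hepten-2-one, at 29.3-fold.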

How the data were processed

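Cy3-labelled RNA of seedlings was hybridised to 1 Agilent one-colour array per group. The deposited scanner files hold spot intensity, made with Agilent Feature Extraction 10.10.1.1 per the file headers, while the submitters' processing notes name version 9.1. Per the file headers, the authors' processed intensity is background-subtracted and spatially detrended within the array and not scaled between arrays. The authors' deposited value table equals it times 1.4484, 1.3835 and 1.9797 for (E)-2-pentenal, 3-hepten-2-one and crotonaldehyde and 1.3801 for acetonitrile. It is linear and not centred, with column medians of 356.7, 352.3, 280.5 and 388.8. The sources used here do not say how the constants were set. Also used from the deposited scanner files were the median spot and background intensity, the error of the processed intensity, and flags coded 0 or 1.

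Here log2 of the processed intensity had the 75th percentile of the array subtracted. Spots flagged as outliers were dropped, repeat spots were averaged per probe, and the probe brightest over the arrays stood for its gene. RefSeq accessions were matched without versions to loci through the RefSeq table of TAIR10.1, from which names and neighbouring genes were taken: 34476 of 43803 spots matched 1 locus. Comparison was limited to genes flagged well above background on every array. For a bound, the dim side was raised to the smallest signal carrying that flag on its array (15.8 in acetonitrile) where its own was smaller. Counting used Python 3.11.15 with pandas 2.3.3, and normalizations R 4.3.3 with limma 3.58.1. The size rule was run on simulated data with noise set from the repeat spots. That noise leaves out the spread between plants and slides, so the run cannot show how the rule performs here. The number of arrays limits the precision.

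The members and gene lists were chosen with earlier results of these data known. Named beside the 10 genes were up to 3 genes per list and volatile past 2-fold, the 5 genes nearest to ERDJ3A, and 4 cytosolic heat genes. HSP90.7, FLA11 and NAC103 were named after their values were seen. Alternatives were normexp (offset 50, on the median spot signal), quantile normalization, median scaling, cyclic loess, scaling on 7 reference genes, no filter on dim probes, the mean over probes, the authors' scaled values, and rules of 1.5-fold and 4-fold. A filter on the 2 arrays compared, and leaving out the crotonaldehyde array, were added after seeing the data.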

Additional observations from a re-analysis of the deposited data

Results flagged for a closer look

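P58IPK moved in opposite directions under 2 volatiles, each by more than 2 error-model SD. It was 2.31-fold higher after crotonaldehyde and 2.70-fold lower after 3-hepten-2-one than in acetonitrile, a log2 difference of 2.64 between those volatiles. The difference was not tested, since each group is 1 array, and the crotonaldehyde array lay on another slide.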

How the results depend on the processing

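No paired analysis was possible because each group holds 1 array. Of 27 differences of the 9 genes from acetonitrile, 24 kept their side of 2-fold under every setting, and none past 2-fold changed sign. The 3 that crossed were CNX1, ERDJ3B and IRE1A after crotonaldehyde, at 1.26, 1.06 and 1.13 with median scaling, and for CNX1 at 1.21 with the mean over probes. Median scaling moved the median of all genes after crotonaldehyde by 0.32, which cannot alter the members' median relative to it, 1.25. That was 1.01 to 1.11 with normexp, quantile normalization and cyclic loess, and 1.34 with the mean over probes. ERDJ3A ranged from 4.14 to 5.32, 4.41 to 5.55 and 5.27 to 6.60 on the (E)-2-pentenal, 3-hepten-2-one and crotonaldehyde arrays, the lowest under normexp.

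The median of the 9 after crotonaldehyde was 1.09 with normexp, 1.05 with quantile normalization, 1.57 with median scaling, 1.13 with cyclic loess and 1.104 with the authors' scaled values. After 3-hepten-2-one it was 0.35 with quantile normalization, 0.34 with scaling on reference genes and 0.37 with the authors' scaled values. The latter scalings moved the median of all genes by -0.15 and -0.12.

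A rule of 4-fold left 1 member past it after each volatile and, for 3-hepten-2-one and crotonaldehyde against (E)-2-pentenal, 0 in both pairs. It left 1, 1 and 2 of the 43 wider ER genes on the (E)-2-pentenal, 3-hepten-2-one and crotonaldehyde arrays, beside 344, 520 and 1393 of all 18411 genes. A rule of 1.5-fold gave 6, 8 and 15 of the 43, beside 2599, 4439 and 7818 of all genes. Among the 9 members, 1.5-fold gave 2 for 3-hepten-2-one against (E)-2-pentenal, 7 for crotonaldehyde against (E)-2-pentenal and 8 for crotonaldehyde against 3-hepten-2-one. At 2-fold, median scaling gave 4 and 6 members for the pairs of crotonaldehyde with (E)-2-pentenal and 3-hepten-2-one. Over all genes 1991 and 3137 were higher and 1852 and 2196 lower. Reference-gene scaling gave 3 for crotonaldehyde against 3-hepten-2-one and 2 for 3-hepten-2-one against (E)-2-pentenal. Without the filter, or with the filter on the 2 arrays compared, BIP3 entered and both 3-hepten-2-one pairs had 2. Apart from these constructions, the cause of each shift was not tested. Over all genes, dropping the filter gave 2184, 3328 and 7819 past 2-fold on the arrays in the order above, instead of 1173, 1968 and 4437. For the pairs, in the order of the 1.5-fold counts, it gave 2888, 6933 and 8222 instead of 1486, 3532 and 4692. For those pairs a rule of 1.5-fold gave 3712, 6973 and 8329, and 4-fold 310, 894 and 1483. Normexp gave 2354 for crotonaldehyde against (E)-2-pentenal. Among all genes past 2-fold, the share higher without the filter was 57.2% instead of 70.6% after (E)-2-pentenal, 49.5% instead of 36.9% after crotonaldehyde, and in the pairs of crotonaldehyde with (E)-2-pentenal and 3-hepten-2-one 48.8% and 48.9%, instead of 29.0% and 38.2%.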

Other observations

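NAC103, a factor known to act downstream of bZIP60, was not higher by 2-fold after any volatile. It had log2 differences of -0.52, -0.77 and -0.97 on the (E)-2-pentenal, 3-hepten-2-one and crotonaldehyde arrays, below the control on each array. These were the lowest differences of the 43 wider ER genes, of which 3, 2 and 9 were at least 2-fold higher on those arrays. NAC103 was chosen after its values were seen.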
